A study of Mus musculus with 54 samples.

Results

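Naive CD4+ T cells that lack CD6 were compared with WT cells 4 h after stimulation of the TCR and of CD28, using 6 of the 54 samples of the series, 3 of each genotype. The samples were chosen by their labels alone, as those labelled Cd6-/- or WT at 4 h in the CD5/CD6 experiment, which holds 36 samples of WT, Cd5-/-, Cd6-/- and Cd5-/-Cd6-/- cells, left unstimulated or stimulated for 4 h or 20 h. WT cells came from C57BL/6 mice. Cd6-/- cells came from 1 mouse line made by CRISPR-Cas9 deletion in C57BL/6 embryos, and carried no other targeted allele. The deletion was present in the germ line and so was not limited to T cells. All mice were young adults. Cells were pooled from lymph nodes and spleens, enriched with a magnetic kit for naive CD4+ T cells, and stimulated with plate-bound anti-CD3 at 3 µg/ml and soluble anti-CD28 at 1 µg/ml. The measurement was the number of sequenced mRNA reads of each gene, with 30230253 to 41520439 reads in genes in the WT libraries and 30604619 to 42266537 in the Cd6-/- libraries. Replicates of a genotype are called libraries 1, 2 and 3 after their numbers in the labels. Same-numbered libraries of both genotypes deviated together from their group means, so calls are given with and without the replicate number as a block in the fit. Counts of list members at an unadjusted p are without the block unless it is named. For counts at an unadjusted p with the block, no share of all genes is given, so they are not set against a background.

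CD6 is a T cell surface receptor of the scavenger receptor cysteine-rich family and a paralog of CD5. Its ectodomain binds ALCAM (CD166) and CDCP1 (CD318) on other cells, and its cytoplasmic tail, once phosphorylated after TCR engagement, binds adaptors and enzymes with opposite effects on signaling, among them SLP-76, the ZAP70 kinase, the exchange factor VAV1 and the inhibitory UBASH3A. Removal of CD6 could therefore raise or lower the transcripts induced through the TCR, and the comparison at 4 h asks which transcripts differ early in the response.

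The targeted gene is shown first because it checks the labels. Cd6 (ENSMUSG00000024670.17) lies on the minus strand at chr19:10789341-10830058 in GRCm38. The 2 sites that the study targeted to make the mice lie in exon 1 (chr19:10829808-10830058), which holds 251 of the 3032 bases and is 1 of the 13 exons of its transcript. Both sites are written 5′ to 3′ on the plus strand, with the PAM, the motif that Cas9 needs beside its target, in capitals.
CD6-1, chr19:10829917-10829939: ggagacggttgtgccaccgaTGG
CD6-2, chr19:10829840-10829862: ccaaggaagagccacatgtcTGG
The second site covers the start codon (chr19:10829854-10829856). The deletion that the study's methods give for the selected mouse line is not the interval between the sites: it takes in the start codon and, by its coordinates, for which the methods name no build, runs past the 3′ edge of exon 1 into the intron. All exons after the first remain in the allele, so reads of a shortened or aberrant transcript are still counted as Cd6.

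Cd6 transcripts were present at 1012, 888 and 867 CPM (read counts scaled to a common library size, with TMM factors) in WT libraries 1, 2 and 3, and at 312, 250.3 and 230.1 CPM in Cd6-/- libraries 1, 2 and 3. Every Cd6-/- library lay below every WT library, and the labels of all 6 libraries held. Cd6 fell by 1.80 on the log2 scale (SE 0.26, 95% interval -2.33 to -1.28), with an adjusted p of 5.52e-05 in edgeR's quasi-likelihood test. With the replicate block it fell by 1.81 (adjusted p = 9.84e-06). Under edgeR's own filter on low counts the fold change was -1.81 with an adjusted p of 0.261, and without the 2 doubtful 0 h libraries described below the same filter gave an adjusted p of 4.99e-09. Transcripts of the paralog Cd5, a neighboring gene, were at 1684, 1399.6 and 1447 CPM in WT and at 1644, 1299.8 and 1133 CPM in Cd6-/- cells, which overlapped, and had a log2 fold change of -0.15 (SE 0.31) with an adjusted p of 1. The ligand gene Alcam, also expressed by the T cells themselves, was at 58.2 to 90.6 CPM in WT and 61.1 to 72.3 CPM in Cd6-/- libraries, with a log2 fold change of -0.15 (SE 0.22) and an adjusted p of 1. The second ligand gene, Cdcp1, was near the limit of detection in all 6 libraries, at 0.154 to 0.693 CPM. Within 100 kb of Cd6 lay 9 annotated genes, of which 7 had a mean count of 10 or more and 0 were called with or without the block. Their log2 fold changes ran from -0.15 to 1.31, and those with an unadjusted p under 0.05 in edgeR's test were Slc15a3, which encodes a peptide and histidine transporter (0.87, SE 0.43), and Tmem132a (1.31, SE 0.56), whose mean levels were 0.228 CPM in WT and 0.578 CPM in Cd6-/- cells.

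Across all 32290 genes tested, calls required a difference of more than 2-fold together with an adjusted p below 0.05. Without the block, Cd6 was the 1 gene called (0.0031% of genes tested). With the replicate number as a block, 18 genes were called: 17 were higher in Cd6-/- cells (0.0526%), and Cd6 was the 1 lower gene (0.0031%). Adjusted p alone, with the block, called 26 higher genes (0.0805%). At an unadjusted p under 0.05 and without the block, 667 genes were higher (2.07%) and 218 lower (0.675%). Among the 10544 genes whose mean count was 50 or more, the 3 Cd6-/- libraries all exceeded the 3 WT libraries for 297 genes (2.82%) and all fell short of them for 509 (4.83%), and 1391 (13.2%) were higher and 2125 (20.2%) lower in all 3 same-numbered pairs. Lower genes were thus the more numerous by direction, and higher genes by the test. The median log2 fold change of these 10544 genes was -0.027 without and -0.020 with the block.

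The number of calls depended on single libraries and on libraries outside the comparison. All 36 libraries share the estimate of spread, and the 0 h libraries 2 labelled Cd6-/- and Cd5-/- go against their labels in the targeted genes. Without these 2 libraries, which are in neither group compared here, 31 genes were called without the block (30 higher), including all 18 of the block, and 19 with it. Without both libraries 1, 42 genes were called without the block and 60 with it, and without Cd6-/- library 1 alone 99 were called. Without the block, leaving out both libraries 2 or both libraries 3 gave 6 or 34 calls, and leaving out WT library 3, WT library 1 or Cd6-/- library 2 alone gave 32, 2 or 4. The block called 1 gene without both libraries 2 and 4 without both libraries 3. Below, a gene is said to have risen only where it was called, and the fit is named.

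**Figure D1:**
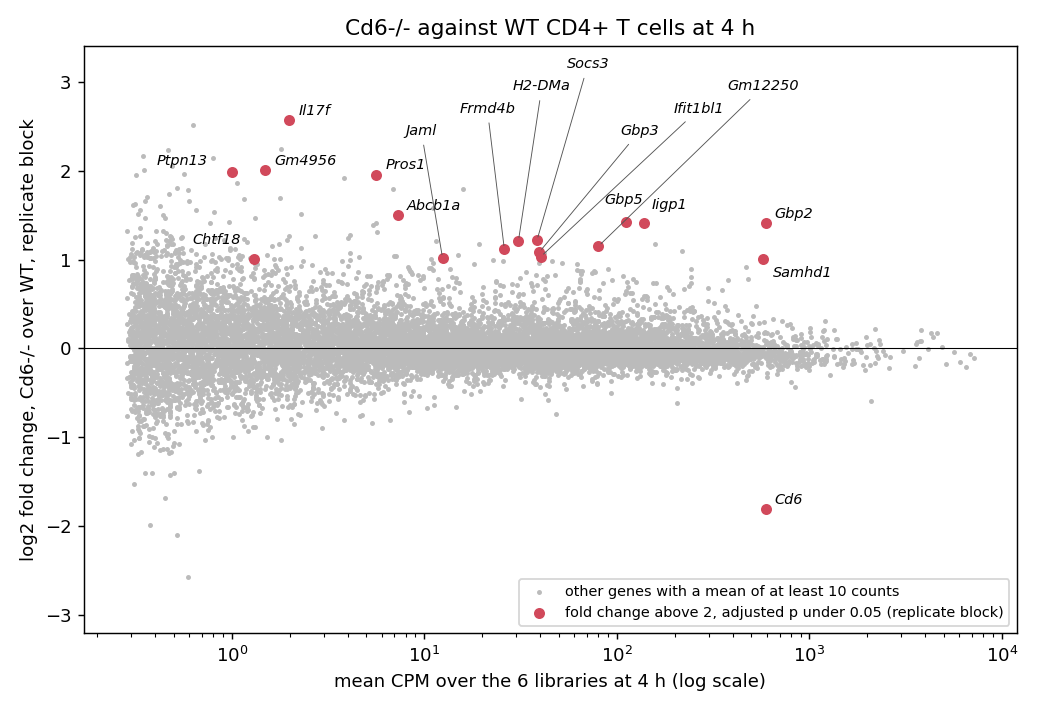
Fold change against level for each gene with a mean count of 10 or more. The x axis is the mean CPM over the 6 libraries at 4 h (log scale) and the y axis the log2 fold change of Cd6-/- over WT cells with the replicate block. The 18 named red points are the genes called with the block, 17 above 0 and Cd6 at -1.81.

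The most numerous group among the genes that rose with the block was that of the guanylate-binding proteins (GBPs) and immunity-related GTPases (IRGs), interferon-inducible large GTPases that coat and disrupt vacuoles holding pathogens. Of the 17 higher genes, Gbp2, Gbp3, Gbp5, Iigp1 and Gm12250 (Irgb10) belong to these families. In mice the GBP genes lie in clusters, and Gbp2, Gbp3 and Gbp5 are neighbors on chromosome 3. Because members of these families share sequence, and how reads matching several genes were counted is not given in the sources used here, the division of reads among near-identical members is uncertain.

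Promoters of these 3 neighboring genes are shown because the genes moved together. Each is the 250 bases before the transcription start in RefSeq (GRCm38.p6), on the plus strand, with capitals for matches to GAAANNGAAA, the core letters bound by interferon regulatory factors and the ISGF3 complex, or to TTCNNNGAA, the letters of the gamma-activated site bound by STAT dimers. Both were searched on both strands.
Gbp2, chr3:142620413-142620662: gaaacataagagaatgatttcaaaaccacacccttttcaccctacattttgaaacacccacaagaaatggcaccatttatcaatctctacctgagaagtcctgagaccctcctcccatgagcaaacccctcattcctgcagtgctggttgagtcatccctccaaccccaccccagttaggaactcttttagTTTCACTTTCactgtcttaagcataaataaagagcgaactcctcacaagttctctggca
Gbp3, the first of 2 starts, chr3:142559794-142560043: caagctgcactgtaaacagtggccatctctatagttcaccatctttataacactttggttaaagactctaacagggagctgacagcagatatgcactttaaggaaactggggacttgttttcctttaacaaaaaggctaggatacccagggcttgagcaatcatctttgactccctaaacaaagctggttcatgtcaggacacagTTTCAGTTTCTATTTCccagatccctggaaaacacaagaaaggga
Gbp5, chr3:142496684-142496933: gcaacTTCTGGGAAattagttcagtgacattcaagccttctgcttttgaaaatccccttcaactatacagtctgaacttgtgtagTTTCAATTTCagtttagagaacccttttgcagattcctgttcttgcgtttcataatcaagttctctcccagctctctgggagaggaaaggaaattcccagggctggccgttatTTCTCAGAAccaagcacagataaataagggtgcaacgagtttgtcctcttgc
GAAANNGAAA matched on the minus strand in each of the 3, with its leftmost base at -59 from the start of Gbp2, at -45 and -39 (overlapping) in Gbp3 and at -165 in Gbp5, and TTCNNNGAA matched in Gbp5 alone of the 3, at -245 and -52. Of the 32851 promoters in the table, each of 300 bases (the 250 and the first 50 transcribed), 3.44% held GAAANNGAAA, 8.3% TTCNNNGAA and 11.3% either. Of the 17 genes that rose with the block, 15 had a promoter in the table, and 9 of these (60%) held either set of letters, against 12.9% of the 27025 genes. These genes were picked by their values, and family members such as Gbp2, Gbp3 and Gbp5 are not independent of each other. No test of these shares was made. A match describes these letters and does not show that a factor bound there.

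Gbp2 transcripts were at 111, 324 and 503 CPM in WT libraries 1, 2 and 3 and at 163, 1188 and 1265 CPM in the Cd6-/- libraries. Gbp5 was at 21.8, 70.6 and 83.3 CPM in WT and at 31.3, 242 and 222 CPM in Cd6-/- cells. For both genes, library 1 was the lowest of its genotype and each Cd6-/- library exceeded the WT library of its number, but the genotypes overlapped. The log2 fold change was 1.48 for Gbp2 (SE 0.38, adjusted p = 0.383) and 1.49 for Gbp5 (SE 0.36, adjusted p = 0.256) without the block. With the block, Gbp2 rose by 1.41 (adjusted p = 0.0165) and Gbp5 by 1.42 (adjusted p = 0.0132). Gbp3, at 10.9, 26.9 and 36.1 CPM in WT and 14.9, 74.4 and 74.1 CPM in Cd6-/- cells, showed the same order of libraries and rose by 1.08 with the block (adjusted p = 0.017). Iigp1, an IRG that attacks the vacuole of Toxoplasma, was at 27.4, 82.2 and 112 CPM in WT and 53.7, 304 and 250.3 CPM in Cd6-/- cells, and rose by 1.41 with the block (adjusted p = 0.00957). Gm12250, at 17.3, 53.3 and 77.9 CPM in WT and 29.2, 156 and 148 CPM in Cd6-/- cells, rose by 1.15 with the block (adjusted p = 0.0165).

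A list of 18 genes of both families, which was drawn up after their values had been seen, leaned in 1 direction. Of its members, 16 were higher at an unadjusted p under 0.05 and 0 lower, against 2.07% and 0.675% of all genes. Among the 17 with a mean count of 10 or more, 16 were higher in all 3 pairs, the log2 fold changes ran from 0.62 to 1.76, and their median was 1.16. Their summed level was 671, 1619 and 2108 CPM in WT libraries 1, 2 and 3 and 877, 4260 and 4164 CPM in the Cd6-/- libraries. The difference was smallest in pair 1, where the median over the members was 0.35, against 1.31 in pair 2 and 1.05 in pair 3.

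**Figure D2:**
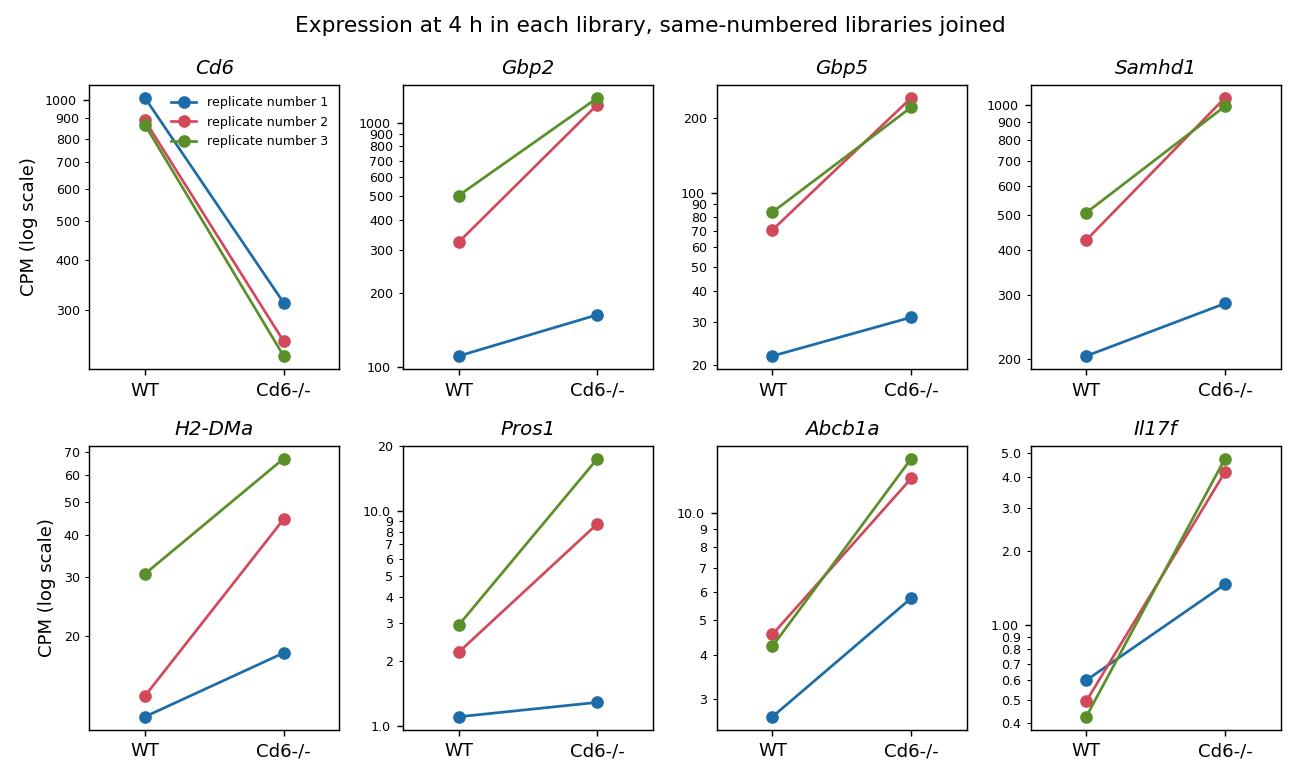
Level of 8 genes in each library at 4 h. The y axes are CPM on log scales, each point is a library and lines join the WT and Cd6-/- libraries of 1 replicate number. Cd6 was lower in every Cd6-/- library, the other 7 genes were higher in all 3 pairs, and library 1 of both genotypes was the lowest of its genotype for Gbp2, Gbp5 and Samhd1.

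Other interferon-stimulated genes were also higher. Samhd1, which encodes a dNTP hydrolase that restricts retroviruses, was at 204, 425 and 506 CPM in WT and 285, 1047 and 993 CPM in Cd6-/- cells, and rose by 1.01 with the block (adjusted p = 0.0415; without it the log2 fold change was 1.03 and adjusted p = 0.323). Ifit1bl1, a member of the IFIT family of RNA-binding proteins, was at 13.5, 26.4 and 40.3 CPM in WT and 29.3, 73.1 and 59.2 CPM in Cd6-/- cells, and rose by 1.03 with the block (adjusted p = 0.017). AW112010, an interferon-inducible transcript, passed the adjusted p alone with the block, with a log2 fold change of 0.87 (adjusted p = 0.00782). In these 3 genes too, each Cd6-/- library exceeded the WT library of its number and library 1 was the lowest.

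Of a list of 17 genes typical of the response to type I interferon, 13 were higher at an unadjusted p under 0.05 and 0 lower, and 13 of the 16 with a mean count of 10 or more were higher in all 3 pairs. Their median log2 fold change was 0.81, with a range of 0.17 to 1.68, and 0 were called in either fit. The summed level of the list was 305, 454 and 555 CPM in WT and 342, 856 and 818 CPM in Cd6-/- cells. Among its members, Ifit1, which binds viral RNA, had a log2 fold change of 0.85 (SE 0.31) and the ubiquitin-like modifier Isg15 of 0.45 (SE 0.31), each with an adjusted p of 1. Further members with an unadjusted p under 0.05 were Ifit3 (1.04), Oas1a (1.24), Usp18 (0.92), Irf7 (0.86), Xaf1 (0.84), Zbp1 (0.92) and Rtp4 (0.73). In WT cells most of this list was lower at 4 h than at 0 h, with a median log2 fold change of -2.22, so the higher levels in Cd6-/- cells were seen in genes that had declined after stimulation, whereas the median of the GBP and IRG list in WT cells was 0.82 above 0 h.

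Among regulators of cytokine signaling, Socs3 rose with the block. Socs3, which encodes an inhibitor of JAK kinases on receptors of the IL-6 family, was at 9.6, 32.7 and 26.4 CPM in WT and 19.0, 70.6 and 72.3 CPM in Cd6-/- cells. Each pair was higher in the Cd6-/- library, but Cd6-/- library 1 lay within the WT range. Socs3 rose by 1.21 with the block (adjusted p = 0.0229), and its log2 fold change without it was 1.23 (SE 0.32, adjusted p = 0.383). Stat4, the transducer of IL-12, did not overlap, with 24.0, 39.3 and 35.0 CPM in WT and 39.7, 56.8 and 59.6 CPM in Cd6-/- cells, and passed the adjusted p alone with the block (log2 fold change 0.67, adjusted p = 0.0165). Irf1, a factor induced by interferon-γ, was at 153, 306 and 364 CPM in WT and 179, 656 and 596 CPM in Cd6-/- cells and was not called (0.80, adjusted p = 0.885, or 0.246 with the block). Of 16 genes of JAK-STAT receptors and transducers, a list drawn up after values had been seen, 7 were higher and 0 lower at an unadjusted p under 0.05, 12 were higher in all 3 pairs, and the median was 0.36 (9 higher and 1 lower with the block).

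Genes of antigen presentation were higher at a few members. H2-DMa, a subunit of the chaperone that loads peptides on MHC class II, was at 11.6, 13.3 and 30.6 CPM in WT and 17.9, 44.4 and 67.1 CPM in Cd6-/- cells, and rose by 1.21 with the block (adjusted p = 0.00283; 1.22 and adjusted p = 0.323 without it). H2-Q6, a class I gene of the Qa-2 family with near-identical neighbors, among which reads may be divided, did not overlap, with 42.6, 58.4 and 57.3 CPM in WT and 71.9, 112 and 103 CPM in Cd6-/- cells, and passed the adjusted p alone with the block (0.85, adjusted p = 0.00818). In a list of 17 genes of MHC class I and class II presentation, also drawn up after values had been seen, 5 were higher and 0 lower at an unadjusted p under 0.05 and the median was 0.36, but within pair 1 the median was -0.018. The class II chain genes H2-Aa, H2-Ab1 and H2-Eb1 had mean levels of 24.6, 31.2 and 33.4 CPM per kilobase of gene in WT cells. In Cd6-/- cells they were at 24.3, 33.0 and 33.8. MHC class II genes are also expressed by B cells and myeloid cells, whose markers are given at the end.

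Among cytokines, the largest fold change was that of Il17f, the product of Th17 cells that recruits neutrophils. It was at 0.598, 0.492 and 0.426 CPM in WT and at 1.47, 4.18 and 4.75 CPM in Cd6-/- cells, without overlap but at a low level, with a mean of 64.3 counts per library. Il17f rose by 2.57 with the block (adjusted p = 0.017), and its log2 fold change without it was 2.76 (SE 0.61, adjusted p = 0.128). Il17a, its neighbor and partner in heterodimers, did not overlap either, with 1.26, 1.24 and 1.67 CPM in WT and 2.24, 8.37 and 8.27 CPM in Cd6-/- cells. It was not called in the fits of all 36 libraries (log2 fold change 2.18, SE 0.57, adjusted p = 0.396, or 0.0793 with the block), but was among the 31 called without the doubtful 0 h libraries (adjusted p = 0.00974). Lif, a cytokine of the IL-6 family, was at 29.0, 54.8 and 41.4 CPM in WT and 40.5, 112 and 96.4 CPM in Cd6-/- cells and passed the adjusted p alone with the block (0.95, adjusted p = 0.0245).

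In the fits of all 36 libraries, the other cytokine genes were not called. Of the list of 22 cytokines and chemokines, which includes Il17a and Lif, 6 were higher and 0 lower at an unadjusted p under 0.05 and the median log2 fold change was 0.24. Ifng, which encodes interferon-γ, was at 2.11, 3.52 and 6.07 CPM in WT and 1.77, 16.3 and 12.1 CPM in Cd6-/- cells, so that it was higher in pairs 2 and 3 and lower in pair 1 (1.37, SE 0.60, adjusted p = 1). Cxcl10, an interferon-induced chemokine, had a log2 fold change of 1.34. That of Csf2, which encodes GM-CSF, was 1.17, and that of the Th2 cytokine gene Il4 was 1.08. None of these passed adjustment in the fits of all 36 libraries. With the block on the 6 samples alone, edgeR's test called Ifng (1.13, adjusted p = 4.92e-07), Cxcl10 (1.16, adjusted p = 1.26e-10) and Il4 (1.11, adjusted p = 1.36e-05). Without both libraries 3 and without the block, it called Ifng (1.66, adjusted p = 0.000597) and Cxcl10 (1.59, adjusted p = 0.00537). Csf2 passed adjustment in 0 of 24 settings. Il2 and Tnf, early cytokine genes of stimulated CD4+ T cells, had log2 fold changes of -0.17 and -0.089 (adjusted p = 1 for both).

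Among genes of helper lineage commitment, 9 of 17 were higher and 0 lower at an unadjusted p under 0.05. Their median was 0.45, with a range of -0.44 to 1.06, and 0 were called in the fits of all 36 libraries. Tbx21, the factor of Th1 cells, was at 19.2, 44.6 and 60.4 CPM in WT and 18.3, 127 and 114 CPM in Cd6-/- cells. It was thus lower in pair 1 and higher in pairs 2 and 3, with a log2 fold change of 1.06 (adjusted p = 1) that ran from 0.53 to 1.54 when 1 library or number was left out. Gata3, the factor of Th2 cells, had a log2 fold change of 0.44. Foxp3 (0.66) and Ikzf2 (0.73), expressed by regulatory T cells, Eomes (0.70), Runx3 (0.48) and Stat3 (0.44) were further members with an unadjusted p under 0.05, beside Stat4.

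**Figure D3:**
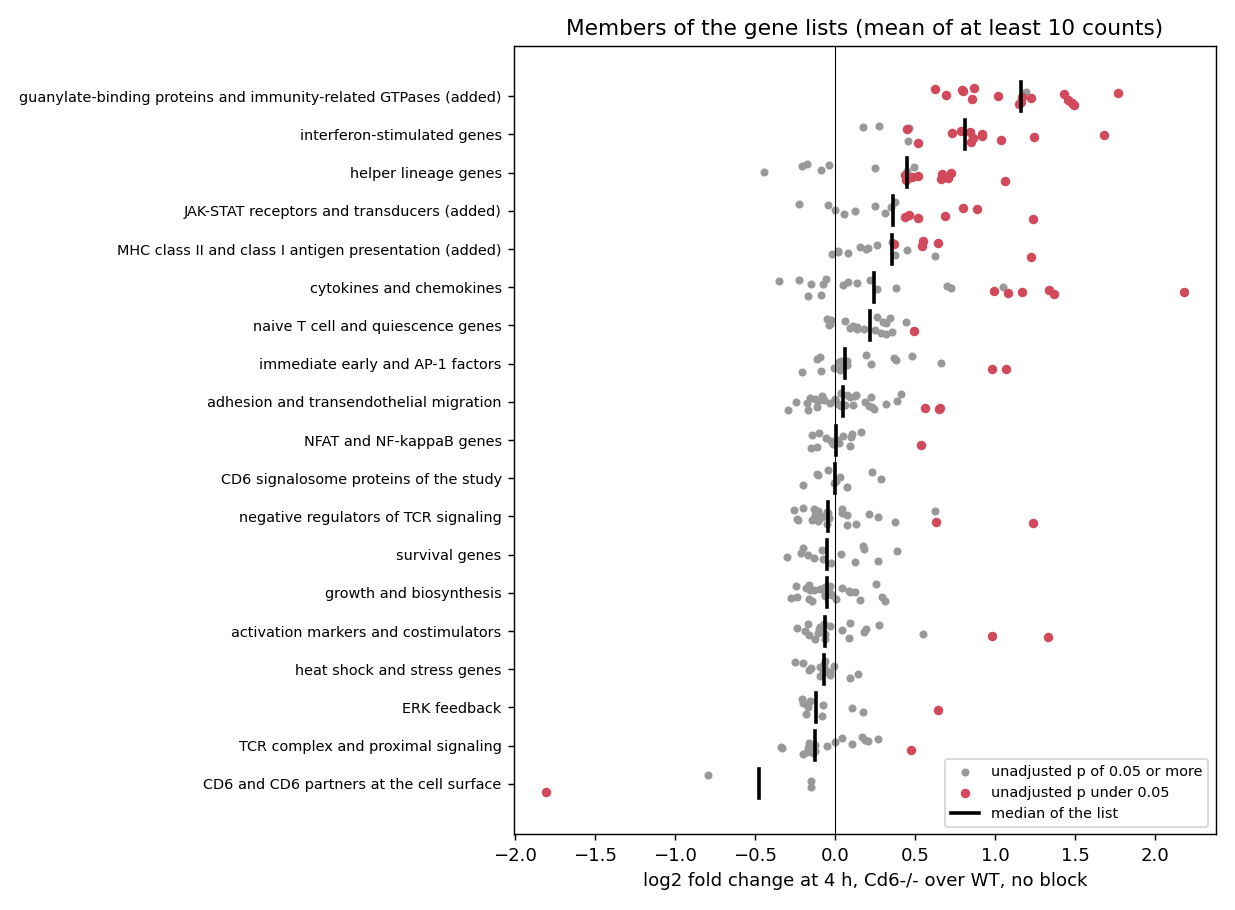
Members of 19 gene lists at 4 h, among genes whose mean count was 10 or more. The x axis is the log2 fold change of Cd6-/- over WT cells without the block, each point is a gene, red marks an unadjusted p under 0.05 and black bars are list medians. The GBP and IRG list (1.16) and the interferon-stimulated list (0.81) have the highest medians, and the lists of TCR signaling and early response lie near 0.

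The other genes that rose with the block do not form a family. Pros1, which encodes protein S, an anticoagulant and a ligand of the TAM receptor kinases, was at 1.10, 2.20 and 2.94 CPM in WT and 1.29, 8.73 and 17.6 CPM in Cd6-/- cells, where pair 1 hardly differed. Pros1 rose by 1.95 with the block (adjusted p = 0.00195), and its log2 fold change without it was 2.14 (SE 0.43, adjusted p = 0.0624). Abcb1a, the drug efflux pump P-glycoprotein, was at 2.68, 4.56 and 4.22 CPM in WT and 5.76, 12.5 and 14.2 CPM in Cd6-/- cells, without overlap. It rose by 1.50 with the block (adjusted p = 0.00283), and the same fold change without it had an adjusted p of 0.0624. Jaml, an adhesion molecule of the junctional family, was at 6.45, 8.96 and 8.83 CPM in WT and 8.82, 19.8 and 21.8 CPM in Cd6-/- cells, and rose by 1.01 (adjusted p = 0.00957).

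At lower levels, Gm4956 was at 0.472, 0.673 and 0.603 CPM in WT and 1.39, 2.11 and 3.69 CPM in Cd6-/- cells, and rose by 2.00 with the block (adjusted p = 0.00818). The tyrosine phosphatase gene Ptpn13 (1.98, adjusted p = 0.017) and Chtf18, a subunit of an alternative clamp loader of DNA replication (1.01, adjusted p = 0.0245), likewise did not overlap between genotypes, at up to 0.518 and 0.913 CPM in WT and at least 1.00 and 1.49 CPM in Cd6-/- cells. Frmd4b, which encodes a FERM domain protein, rose by 1.12 with the block (adjusted p = 0.0263) although it was lower in the Cd6-/- library of pair 1, with 11.8, 18.8 and 16.0 CPM in WT and 9.52, 46.8 and 53.4 CPM in Cd6-/- cells.

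Below the fold threshold of 2, a few more genes passed the adjusted p with the block. Igfbp4, which encodes a binding protein of insulin-like growth factors, was at 11.7, 17.6 and 22.0 CPM in WT and 17.6, 37.7 and 47.2 CPM in Cd6-/- cells (log2 fold change 0.98, adjusted p = 0.00791). Its level at 0 h in WT cells was 923 to 1312 CPM, so WT cells had lost nearly all of it by 4 h. Tmie, a gene named for the inner ear, was at 4.57, 8.54 and 8.87 CPM in WT and 10.3, 13.5 and 17.4 CPM in Cd6-/- cells, without overlap (0.91, adjusted p = 0.0229). Sh3bp5, which encodes a regulator of Rab11 and JNK (0.85, adjusted p = 0.0257), Castor1, an arginine sensor of mTORC1 (0.91, adjusted p = 0.017), and Gimap7, a GTPase of lymphocytes (0.57, adjusted p = 0.035), complete the set of 9 with Lif, Stat4, H2-Q6 and AW112010.

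In the fits of all 36 libraries, Cd6 was the 1 gene called lower, with or without the block. Other settings called a few more: 4 lower genes with the block on the 6 samples alone, 3 without both libraries 3 and 2 without Cd6-/- library 1, Cd6 included in each count. The 8 best-ranked lower genes had a log2 fold change from -0.87 (Camk2b) to -0.53 (Ide), and the smallest adjusted p among them with the block was 0.08. That value belonged to Ephx1, a microsomal epoxide hydrolase, which was at 310.3, 172 and 265 CPM in WT and 213, 137 and 133 CPM in Cd6-/- cells. Itm2a, a membrane protein gene induced on T cell activation, was at 2969, 1846 and 2794 CPM in WT and 2204, 1419 and 1331 CPM in Cd6-/- cells (log2 fold change -0.62, adjusted p = 1, or 0.131 with the block). Both genes were lower in all 3 pairs, and their genotypes overlapped. With the block on the 6 samples alone both passed the adjusted p but not the fold threshold (Ephx1 -0.60, adjusted p = 2.27e-07, and Itm2a -0.60, adjusted p = 9.18e-12). The same was so without Cd6-/- library 1 (adjusted p = 0.0289 and 0.0376). The insulin-degrading enzyme gene Ide did not overlap, with 41.5 to 66.0 CPM in WT and 30.4 to 39.9 CPM in Cd6-/- cells.

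The genes of the signaling machinery that CD6 joins did not differ detectably. Of 10 genes of CD6 signalosome proteins, 0 had an unadjusted p under 0.05, the log2 fold changes ran from -0.20 to 0.29, and the median was -0.00026. Ubash3a, a phosphatase-like inhibitor of TCR signaling, had a log2 fold change of 0.072, Zap70, the kinase bound to the TCR, of -0.20, and Lcp2, which encodes the adaptor SLP-76, of -0.0043. Of 19 genes of the TCR complex and its proximal kinases and adaptors, 1 was higher at an unadjusted p under 0.05, Cd247, the ζ chain of the TCR complex (0.48), and the median was -0.13. With the block the TCR list also had 2 lower members. Among 26 negative regulators of TCR signaling, Socs3 and Cish (0.63), another SOCS family inhibitor, were the 2 with an unadjusted p under 0.05, and the median of the list was -0.045.

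The list medians of targets of TCR signaling were likewise near 0. Of 22 immediate early and AP-1 genes, Jun (0.98) and Atf3 (1.07) had an unadjusted p under 0.05, and the median was 0.065. With the block on the 6 samples alone, Atf3 passed both thresholds in edgeR's test (1.08, adjusted p = 2.30e-17). There Jun passed the adjusted p but not the fold threshold (0.92, adjusted p = 3.23e-13). With the block on all 36 libraries, 3 members were higher at an unadjusted p under 0.05. Egr2 (-0.21) and Nr4a1 (-0.090), both read as measures of TCR signal strength, were not called (adjusted p = 1). Of 16 NFAT and NF-κB genes 1 was higher, Bcl3 (0.54), with a median of 0.0057, and of 10 genes of ERK feedback 1 was higher, Dusp10 (0.64), with a median of -0.12. Of 21 activation markers and costimulators the coinhibitory receptor genes Havcr2 (1.33) and Tigit (0.98) were higher at an unadjusted p under 0.05, the median was -0.060, and the members ran from -0.24 to 1.33. Tigit was at 8.56, 8.98 and 9.79 CPM in WT and 10.4, 22.3 and 21.4 CPM in Cd6-/- cells, without overlap (adjusted p = 0.993, or 0.139 with the block).

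Growth, survival and stress genes gave no call either. Of 27 genes of growth and biosynthesis 0 had an unadjusted p under 0.05 without the block and 3 were lower with it, and 11 were lower and 2 higher in all 3 pairs, with a median of -0.050. For 14 survival genes and 16 heat shock and stress genes the counts at an unadjusted p under 0.05 were 0 and 0 (1 survival gene higher with the block), and the medians -0.048 and -0.066. Of 34 genes of adhesion and transendothelial migration 3 were higher, the integrin gene Itga6 (0.65), the costimulatory adhesion receptor gene Cd226 (0.56) and the integrin ligand gene Icam1 (0.66), with a median of 0.049. With the block 5 were higher and 1 lower. The genes of LFA-1, Itgal (-0.17) and Itgb2 (-0.29), were not called.

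Genes that maintain the naive state leaned to higher levels in Cd6-/- cells. Of 20 naive T cell and quiescence genes 16 had a positive log2 fold change, 8 were higher and 0 lower in all 3 pairs, and the median was 0.22. At an unadjusted p under 0.05, 1 was higher without the block, Tsc22d3, a target of glucocorticoids and FOXO factors (0.49), and 6 with it, and 0 were called. The list summed to 5833, 7269 and 7430 CPM in WT and 7321, 8096 and 7731 CPM in Cd6-/- libraries, which overlapped, and the median within pairs went from 0.46 in pair 1 to -0.016 in pair 3. Ccr7, the lymph node homing receptor gene, had a log2 fold change of 0.29 and Klf2, a factor of quiescence, of 0.36 (adjusted p = 1 for both).

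How far the 4 h response had gone in each library was summarized with genes chosen on other libraries, the sorted WT cells of the LAT experiment, in which 2236 genes were higher and 2581 lower at 4 h than at 0 h. On a scale where the WT means at 0 h and 4 h are 0% and 100%, WT libraries 1, 2 and 3 were at 105%, 97.6% and 97.2% (SD 4.50%), and Cd6-/- libraries at 101%, 91.3% and 91.2%, with a mean of 94.4% ± 5.44 (SD, n = 3). Each Cd6-/- library was below the WT library of its number, with differences of -4.52, -6.23 and -6.08 percentage points. The genotypes overlapped, and with 3 pairs no test was made. Genes higher at 4 h had a median log2 fold change of -0.074, with 170 of 2131 higher and 681 lower in all 3 pairs. Genes lower at 4 h, 2149 of the 13442 genes with a mean count of 10 or more, had a median of 0.12, with 665 higher and 130 lower in all 3 pairs. Of the 18 genes called with the block, 12 were in the group lower at 4 h in sorted WT cells and 0 in the group higher at 4 h. At an unadjusted p under 0.05 without the block, 213 were higher and 14 lower in the group lower at 4 h. In the group higher at 4 h, 31 were higher and 29 lower. Of all 13442 genes, 428 were higher and 84 lower at this p. In all 3 pairs, 1818 of the 13442 were higher and 2439 lower. These groups describe the sorted WT cells. In the WT cells compared here the called genes went both ways from 0 h to 4 h. Gbp2 went from 86.0 to 110 CPM at 0 h up to 111 to 503 CPM at 4 h. Socs3 went from 99.2 to 134 CPM at 0 h down to 9.6 to 32.7 CPM at 4 h.

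**Figure D4:**
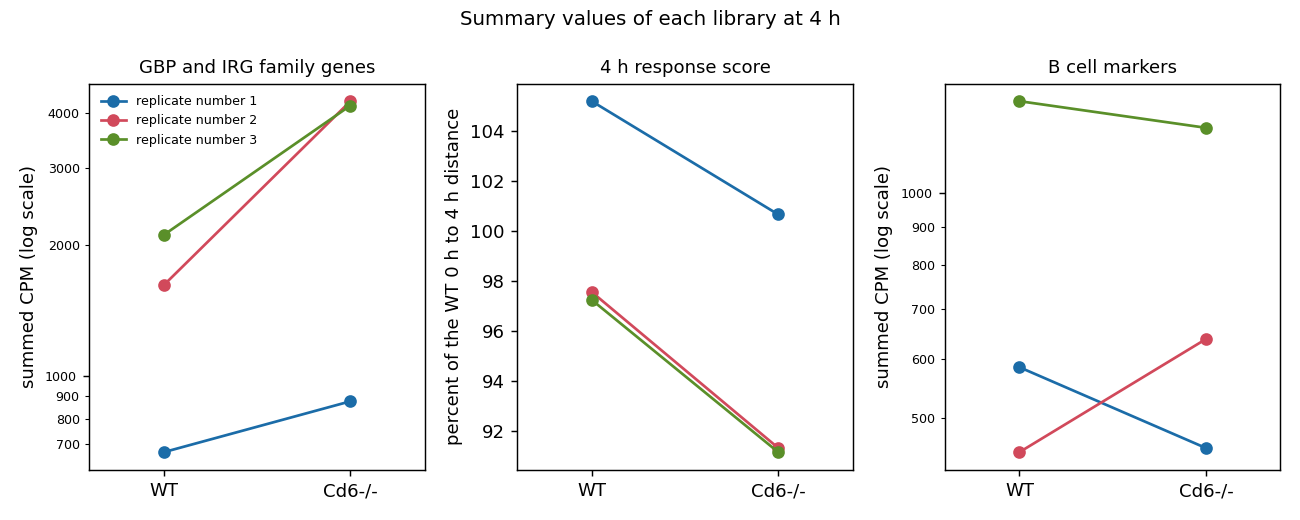
Summed level of the GBP and IRG genes, 4 h response score and summed level of B cell markers in each library at 4 h. The outer y axes are summed CPM on log scales and the middle axis is the percent of the WT distance from 0 h to 4 h. Lines join libraries of 1 replicate number. The GBP and IRG sum is higher and the score lower in the Cd6-/- library of each pair, and B cell markers differ in direction between pairs.

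At 20 h, which has its own 3 WT libraries, the fold change of Cd6 was -1.83, as low as at 4 h. Of the higher genes of 4 h, Pros1 was the 1 called at 20 h too, with the block (log2 fold change 1.31, adjusted p = 0.0460), at 29.7, 26.2 and 49.3 CPM in WT and 41.9, 88.4 and 163 CPM in Cd6-/- cells. Without the block Pros1 was not called at 20 h (log2 fold change 1.48, adjusted p = 0.600 in edgeR's test). In all, 6 genes were called at 20 h without the block (0.0186%) and 8 with it (0.0248%), among them Xdh, which encodes xanthine dehydrogenase (1.22, adjusted p = 0.0114), and several genes of ribosomal and other small noncoding RNAs, which poly(A) selection should mostly remove. Cd6-/- library 3 at 20 h had 1.85% of its reads in small RNA genes, against 0.0993% to 0.136% in the other 5 WT and Cd6-/- libraries at 20 h, and its part in these calls was not tested. The median of the GBP and IRG list was 0.47 at 20 h against 1.16 at 4 h, and that of the interferon-stimulated list 0.66 against 0.81.

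The difference between times was tested as an interaction, 20 h minus 4 h. It called 0 genes in edgeR's test (0%) and 0 in DESeq2, and 523 genes (1.62%) had an unadjusted p under 0.05. Abcb1a was higher in Cd6-/- cells at 4 h and had a log2 fold change of -0.0076 at 20 h (unadjusted p of the difference 0.00279), and Chtf18 one of -0.13 (0.000246). Neither passed adjustment. Il17a had a log2 fold change of 3.43 at 20 h (adjusted p = 0.515), with at most 0.19 CPM in WT and 0.0925, 0.591 and 1.37 CPM in Cd6-/- cells, where libraries 2 and 3 carried the difference.

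**Figure D5:**
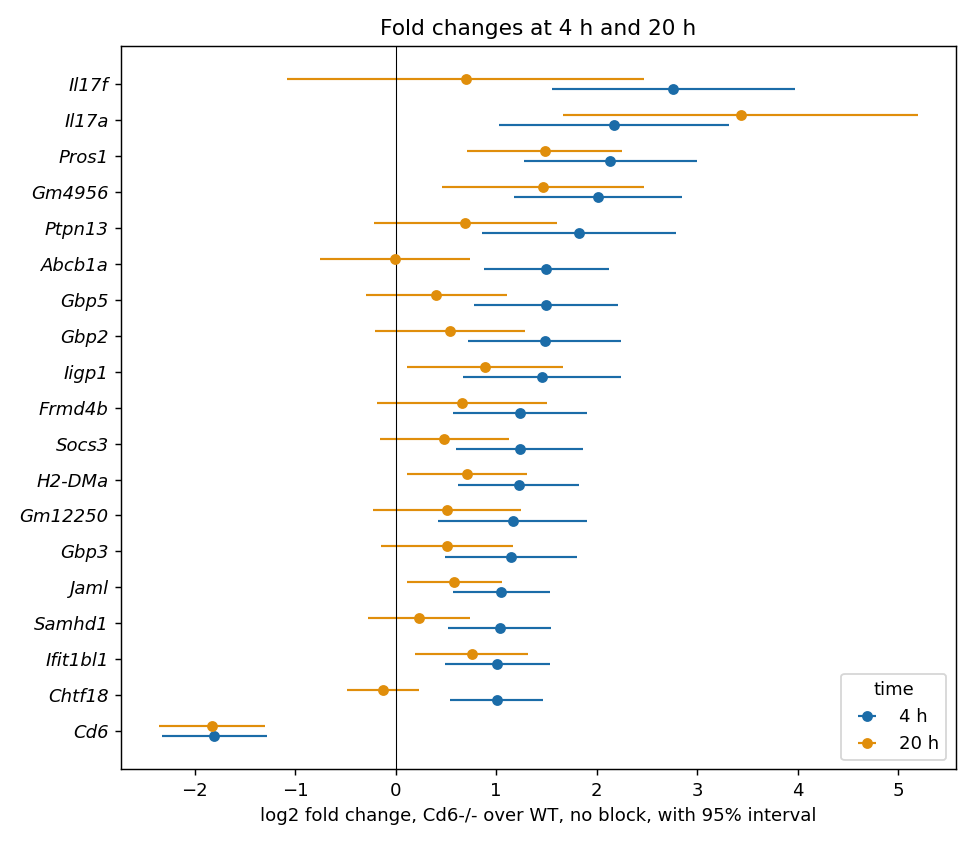
Fold changes of Cd6, Il17a and the genes called with the block at 4 h, at both times. The x axis is the log2 fold change of Cd6-/- over WT cells without the block, points are estimates and lines 95% intervals. Cd6 is near -1.8 at both times, whereas Abcb1a and Chtf18 are above 0 at 4 h and near 0 at 20 h.

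Cells of the other genotypes at 4 h were compared with the same WT libraries, so their differences share those controls and are given side by side with no test of likeness. In Cd5-/-Cd6-/- cells, in which Cd6 was at 0.459 to 0.652 CPM, the median log2 fold change was 0.91 for the GBP and IRG list and 0.58 for the interferon-stimulated list. In Cd5-/- cells, which had 1048 to 1245 CPM of Cd6, these medians were -0.13 and -0.44. Markers of other cells also differed between these genotypes. Their medians in Cd5-/-Cd6-/- and Cd5-/- cells were 0.10 and -1.33 for B cells and 0.30 and -0.58 for myeloid cells. They were 0.79 and -1.37 for erythroid cells and platelets, whereas CD4+ T cell markers went the other way (-0.080 and 0.17). The part of other cells in the differences between genotypes was not tested. Levels of Gbp5 were 44.8, 255 and 137 CPM in Cd5-/-Cd6-/- libraries 1, 2 and 3 and 19.6, 92.6 and 44.8 CPM in Cd5-/- libraries. Library 1 was again the lowest for Gbp5 in both genotypes, as it was in WT and Cd6-/- cells. Abcb1a was at 5.32, 14.0 and 11.6 CPM in Cd5-/-Cd6-/- libraries and at 3.96, 8.28 and 4.01 CPM in Cd5-/- libraries. Il17f, at 0.207, 1.58 and 1.41 CPM in Cd5-/-Cd6-/- libraries, did not reach its level in Cd6-/- libraries of the same numbers.

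Markers of the labelled cells were present in every library. CD4+ T cell markers summed to 4255 to 5131 CPM in WT and 3851 to 4818 CPM in Cd6-/- libraries, and 0 of the markers of any list were at 0 in all 6 libraries. Of the 7 CD4+ T cell markers 0 had a positive log2 fold change, the median was -0.17, and the medians within pairs 1, 2 and 3 were -0.12, -0.047 and -0.37. At an unadjusted p under 0.05, 0 were lower without the block and 1 with it. In bulk RNA, fewer cells of a type and less RNA per cell cannot be told apart. B cell markers, which include class II genes, summed to 449.7 to 1327 CPM in WT and 455 to 1222 CPM in Cd6-/- libraries, with 0 of 11 at an unadjusted p under 0.05, so B cell transcripts were present in both genotypes. Myeloid markers summed to 79.4 to 108 CPM and 75.7 to 129 CPM (1 of 14 higher), NK cell markers to 54.4 to 67.5 CPM and 53.3 to 94.5 CPM (0 of 6), and CD8 markers to 17.2 to 32.4 CPM and 19.3 to 29.3 CPM (0 of 2). Erythroid and platelet markers varied from 1090 to 2022 CPM in WT and from 927 to 2014 CPM in Cd6-/- libraries (0 of 8). Medians within pairs 1, 2 and 3 were -1.11, 0.90 and 0.75 for erythroid and platelet markers and -0.47, 0.30 and 0.67 for myeloid markers. These lists, like the GBP and IRG list, were lowest in pair 1, and their part in the interferon-inducible genes was not tested.

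Some markers of T cell subsets were higher at an unadjusted p under 0.05, but the sums of these lists overlapped between genotypes. Of 6 γδ T cell markers 3 were higher at an unadjusted p under 0.05, with sums of 21.6 to 23.4 CPM in WT and 16.7 to 31.0 CPM in Cd6-/- libraries. Tcrg-C1 was at 0.220, 0.181 and 0.284 CPM in WT and 0.489, 1.02 and 1.19 CPM in Cd6-/- cells (log2 fold change 1.96, adjusted p = 0.383, or 0.105 with the block), whereas Trdc, the constant region of the δ chain, was at 18.7 to 20.8 CPM and 13.8 to 24.6 CPM (-0.082). Of 4 regulatory T cell markers 2 were higher, Foxp3 and Ikzf2, with sums of 638 to 933 CPM and 728 to 794 CPM. Most of these sums was Il2ra, which is also an activation marker, so they do not measure regulatory T cells alone. Il2ra was at 612 to 895 CPM in WT and 671 to 757 CPM in Cd6-/- libraries, against 20.1 to 22.1 CPM in WT cells at 0 h. Of 7 memory and effector markers 2 were higher, with sums of 134 to 182 CPM and 124 to 197 CPM, and of 6 stromal markers 1, with sums of 46.5 to 86.6 CPM and 83.2 to 108 CPM. The stromal sums were nearly all Pecam1, with 1463 to 3572 counts per library, whereas the other stromal members had at most 13. Medians within pairs 1, 2 and 3 were -0.10, 0.78 and 0.91 for regulatory T cell markers and -0.44, 0.78 and 0.40 for memory and effector markers, again lowest in pair 1. The part of these cells in the levels of Il17a, Il17f and the interferon-stimulated genes was not tested. The share of reads in mitochondrial genes was 1.90% to 2.36% in WT and 1.61% to 2.28% in Cd6-/- libraries.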

How the data were processed

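RNA of naive CD4+ T cells was measured by single-read sequencing of stranded mRNA libraries. The authors trimmed reads (DimerRemover), aligned them to GRCm38 (STAR), counted reads per gene with featureCounts and deposited raw counts, 1 column per sample, which were neither normalized nor pooled. The annotation release, the strand setting and the treatment of reads matching several genes are not given in the sources used here. The submitters' processing notes name bcl2fastq 2.17.1.14. Identifiers were matched to the GENCODE annotation of GRCm38 (55144 of 55385).

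The 32290 genes with 1 or more reads over all samples were kept. Counts of all 36 samples of the experiment were fitted with edgeR 4.0.16 (TMM factors, quasi-likelihood test, Benjamini-Hochberg adjustment) in R 4.3.3, with limma 3.58.1 and the data.table package (1.17.8). Calls required a difference of more than 2-fold together with an adjusted p below 0.05. Pairs were same-numbered libraries: over the 13442 genes whose mean count was 10 or more, their deviations from the group means correlated at 0.30, 0.19 and 0.22, against -0.23 to -0.01 for different numbers, and the number therefore entered the block fit. Deviations within a genotype cancel by construction, so the negative values follow from the positive ones and are not separate evidence of pairing. The labels call the samples replicates, and nothing in the sources used here ties the 4 h samples to separate mice, so p-values measure the spread between these samples, which may be technical. Replicates differed beyond sampling noise (chi-square per degree of freedom 12.8 to 67.6). Alternatives were DESeq2 1.42.0, RLE factors, library totals alone, edgeR's filterByExpr, the 6 samples alone, the block, and fits without each library or pair. Fits without the 0 h libraries 2 and DESeq2 with the block were added after the data had been seen. A prior count of 2 was added for the log2 CPM of the response score.

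The comparison, the gene lists and the rule for named genes were chosen with earlier results of these data known, and 3 lists (GBPs and IRGs, antigen presentation, JAK-STAT) after the values had been seen. The rule names Cd6, Cd5, its ligands, called genes, the 8 genes per direction with the smallest p among those whose mean count was 50 or more and whose direction agreed in all 3 pairs, the first 3 members of each list (for some lists given only within the range), further members with an unadjusted p under 0.05, and genes within 100 kb. Genes called only with the block, and members of the 3 added lists, were picked with their values known. The test was checked on simulated counts whose spread was set in advance. This check does not show how the test performs at the spread of these libraries.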

Additional observations from a re-analysis of the deposited data

How the results depend on the processing

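The count of genes called at 4 h, 1 without the block, was 18 with the replicate block, 0 with filterByExpr (where the Cd6 fold change was -1.81 and no longer passed), 12 with the 6 samples alone, 67 with those 6 and the replicate block, 31 without both 0 h libraries 2, 19 without them and with the replicate block, and 6 with DESeq2 and the replicate block. It stayed at 1 with RLE factors, library totals, DESeq2, adjusted p alone, and filterByExpr without both 0 h libraries 2. Of the 18 calls of the block, 16 were shared with the block of the 6 samples alone and 6 with DESeq2 and the block. Fits that left out 1 library or 1 number gave 1 to 99 calls, and 0 to 18 for the difference between 20 h and 4 h. The cause of these shifts was not tested. The replicate block changed no other call in the results named here beyond those given beside them.

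Medians of lists moved with the setting. With library totals alone they were 0.090 for immediate early genes, -0.035 for activation markers and -0.025 for growth genes. With the 6 samples alone they were -0.036 for activation markers and -0.027 for growth genes, and with the replicate block as well 0.094, -0.023 and -0.021 for the 3 lists. Under these 3 settings Lcp2 turned to 0.022, 0.020 and 0.018, and Bcl2 to 0.0045, 0.0014 and 0.00084. With 1 library or number left out, list medians ran from -0.18 to -0.044 for TCR signaling, from 0.018 to 0.20 for immediate early genes, from -0.050 to 0.11 for NFAT and NF-κB genes, from -0.068 to -0.00065 for activation markers, from 0.015 to 0.098 for adhesion and from -0.072 to -0.035 for growth. The higher medians kept their sign but ran from 0.50 to 1.19 for interferon-stimulated genes, 0.78 to 1.61 for GBPs and IRGs, 0.076 to 0.52 for cytokines, 0.28 to 0.62 for helper lineage, 0.070 to 0.30 for naive genes, 0.12 to 0.77 for antigen presentation and 0.23 to 0.57 for JAK-STAT genes. Genes that changed sign in such fits ran as follows, with 0 of them called: Alcam from -0.29 to 0.028, Ubash3a from -0.049 to 0.15, Lcp2 from -0.058 to 0.048, Ptpn22 from -0.10 to 0.0030, Dusp6 from -0.24 to 0.097, Tnf from -0.22 to 0.10, Ncl from -0.0078 to 0.28, Bcl2 from -0.11 to 0.050, Hspa1a from -0.46 to 0.46 and Hsp90aa1 from -0.13 to 0.029.

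With 3 libraries per genotype, genes under 1 CPM rested on few reads, and a missed call does not show that levels were equal.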

Other observations

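Without the 0 h libraries 2 whose labels are doubtful, a setting chosen after seeing the data, 13 genes were called higher at 4 h beyond the 18 of the replicate block. They included further GBPs, Gbp6 (log2 fold change 1.23, adjusted p = 0.0165 in edgeR's test), Gbp7 (1.17, adjusted p = 0.0207) and Gbp8 (1.02, adjusted p = 0.0426), and Parp14, an interferon-induced ADP-ribosyltransferase (1.10, adjusted p = 0.00610). Casp1, which encodes the inflammasome protease caspase-1 (1.28, adjusted p = 0.0483), Brca1, a gene of DNA repair (1.27, adjusted p = 0.00218), and Penk, which encodes the precursor of enkephalins (1.49, adjusted p = 0.0124), were among them. Myo6 (1.09) and Gpr34 (1.26) were called as well, beside Il17a, Tcrg-C1 and Igfbp4. Igha, the constant region of IgA heavy chains and a transcript of plasma cells, was also called (1.72, adjusted p = 0.0389). With the block and all 36 libraries the adjusted p of these genes other than Igfbp4 was between 0.0605 and 0.476, and the part of cells other than T cells was not tested.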
